A study of Mus musculus with 6 samples.

Results

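The genes described here encode 8 lysosomal hydrolases, Hexa, Glb1, Gusb, Gaa, Man2b1, Asah1, Neu1 and Smpd1. They were chosen by symbol, as enzymes that break down glycans and sphingolipids in the lysosome. All 8 were found among the 35371 genes whose values could be read from the table of the authors, and all 8 were high enough to be tested. RNA came from bone marrow-derived macrophages (BMDMs), grown from the femoral marrow of C57BL/6 mice with M-CSF for 7 days. The Ctrl group holds 3 libraries of BMDMs without ZA, and the ZA group holds 3 libraries of BMDMs harvested 12 h after zoledronic acid (ZA) was added. ZA is a nitrogen-containing bisphosphonate, a drug class that blocks farnesyl diphosphate synthase of the mevalonate pathway. Wild-type C57BL/6 mice were obtained as females at 6 weeks of age, but no source used here says at what age mice gave marrow for these cultures, nor which concentration of ZA these libraries had. No transgene or gene deletion is named for either group. The sources do not say whether replicates were separate mice or separate dishes, so that p-values measure the spread between these libraries, which may be technical.

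Lysosomal hydrolases are made in the endoplasmic reticulum, receive a mannose 6-phosphate tag in the Golgi and are carried by its receptors to the lysosome, where they work at acidic pH. Glycosidases there remove sugars from glycoproteins, glycosaminoglycans, glycogen and gangliosides, and the remaining sphingolipid core is cut into ceramide and then sphingosine. Macrophages take up dead cells and debris and are rich in these enzymes, and inherited loss of any of the genes causes a storage disease. TFEB and TFE3, transcription factors that the kinase mTORC1 keeps out of the nucleus, bind E-box letters in many lysosomal gene promoters.

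The library totals behind the FPKM values, estimated from those values, were between 41230600 and 42155808 fragments. All fragment numbers given below rest on these estimates. The lowest correlation between any pair of libraries, across genes on the log2 scale, was an r of 0.996. All 8 macrophage markers checked (Adgre1, Csf1r, Cd68, Fcgr1, Mertk, Itgam, Lyz2 and Cd14) had a mean FPKM of at least 1, the lowest being Mertk at 23.9 and the highest Lyz2 at 22699. Markers of other cell types were low or partly present. The 10 neutrophil and progenitor markers summed to an FPKM of 35.4 to 50.9 in Ctrl, and 31.5 to 37.1 in ZA. Of these 10, 6 had a mean FPKM of at least 1, with S100a9 the highest at 16.4, and Ly6g was at 0 in all libraries. The 8 osteoclast markers summed to 194 to 214 in Ctrl, and 172 to 195 in ZA. Of these 8, 4 had a mean FPKM of at least 1, with Atp6v0d2 the highest at 141, while Calcr averaged 0.00103. The 6 stromal markers summed to 9.86 to 19.1 in Ctrl, and 8.82 to 14.3 in ZA, with 3 at a mean FPKM of at least 1. The part of these other cell types in the values below was not tested.

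None of the 8 enzymes passed the test of ZA against Ctrl. At an adjusted p-value under 0.05 from limma, 0 of 8 were called, where 0.367% of all 9798 genes tested were called (36 genes). Below an unadjusted p of 0.05 were also 0 of 8, beside 12.3% of all genes. The FPKM ranges of the groups overlapped for every one of the 8. Over all genes tested they did not overlap for 18.1%, 11.3% with ZA above Ctrl and 6.76% with ZA below. With only 8 genes, counts of 0 do not set the enzymes apart from these shares. The mean moved up in 6 and down in 2 of the enzymes, with a median log2 fold change of 0.015 beside 0.010 over all genes tested. The median absolute log2 fold change was 0.019, beside 0.041 over all genes. Their median standard error was smaller as well, 0.026 beside 0.043 over all genes. Genes of like level were not compared, and the reason for the smaller fold changes was not tested. In bulk RNA, a change in the number of cells that express a gene and a change in RNA per cell cannot be told apart.

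**Figure D1:**
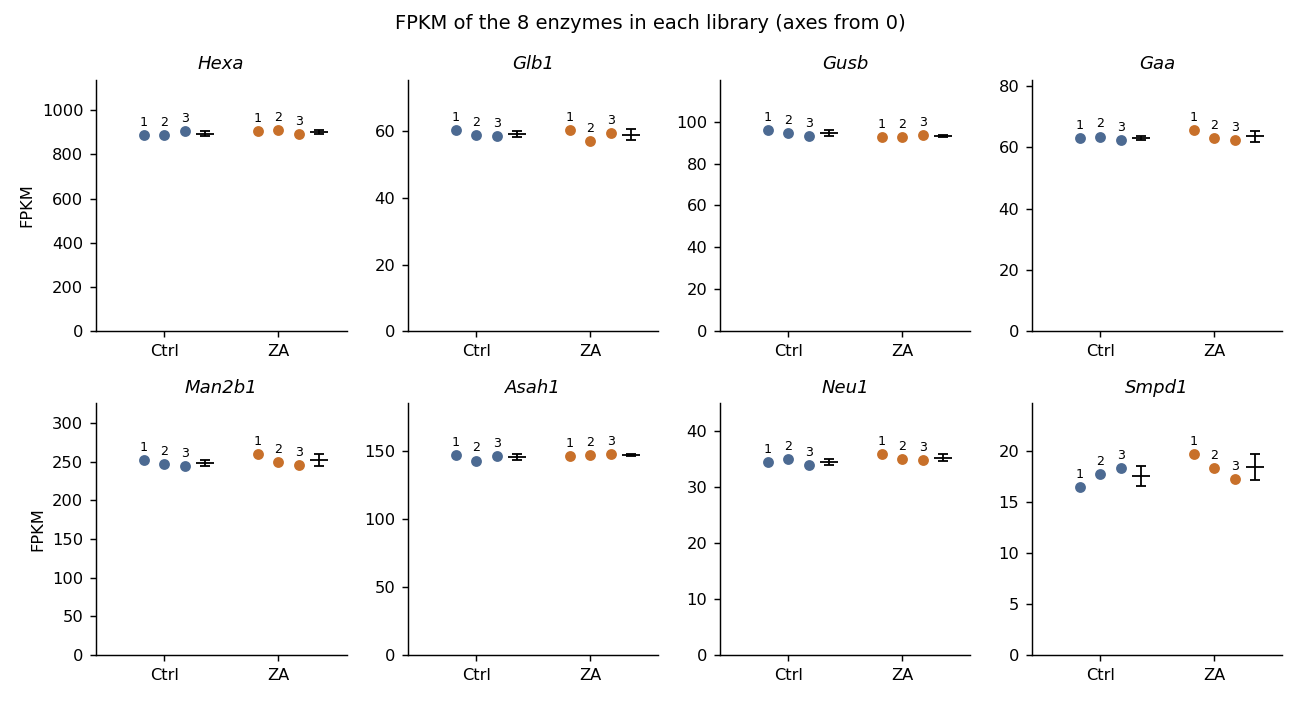
FPKM (y axis, from 0 in each panel) of the 8 enzymes in the 3 Ctrl (blue) and 3 ZA libraries (orange), numbered by replicate, with the group mean and SD as a black bar beside the points. The groups overlap in each panel, and Smpd1 has the widest scatter relative to its level, from 16.5 to 19.8.

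Hexa encodes the alpha subunit of beta-hexosaminidase, the enzyme that removes N-acetylgalactosamine from GM2 ganglioside. Its FPKM was 887, 889 and 906 in Ctrl 1, 2 and 3, and 905, 910.2 and 892 in ZA 1, 2 and 3. It was the most abundant of the 8 enzymes, 44th of the 9798 genes by mean FPKM, with 71751 to 73502 fragments per library. Ctrl 3 lay among the ZA values, and the mean was 894 ± 10.4 in Ctrl against 902 ± 9.35 in ZA (SD, n = 3). The fold change on the log2 scale came to 0.014 ± 0.019 (SE, limma, adjusted p = 0.812). Its 95% interval, from -2.10% to 4.11% of FPKM + 1, was the narrowest of the 8 on the log2 scale. In the GENCODE M21 annotation 255 of the 1996 exon bases of Hexa overlap Tmem202 on the other strand, and the sources do not state strand in counting. Tmem202 was listed at 2.40 to 3.68 FPKM, far below Hexa.

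Glb1, lysosomal beta-galactosidase, acts one step before hexosaminidase on GM1 ganglioside and also on keratan sulfate, and its activity at a raised pH is the usual stain for senescent cells. It had an FPKM of 60.3, 58.8 and 58.5 in the Ctrl libraries against 60.4, 57.1 and 59.5 in the ZA libraries. ZA 2 was the lowest and ZA 1 the highest of all 6 libraries, so that the Ctrl range fell within the ZA range. On the log2 scale the fold change was -0.0059 ± 0.029 (SE, limma, adjusted p = 0.954), with a 95% interval from -4.84% to 4.22%. This sign was not stable, since it turned positive without Ctrl replicate 1 (0.0074) or without ZA replicate 2 (0.017). Glb1 shares 165 of 3008 exon bases in GENCODE M21 with Tmppe on the same strand, which was at 6.63 to 7.03 FPKM.

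Neu1 is the lysosomal sialidase, which takes terminal sialic acids off glycoproteins and gangliosides. It works in one complex with beta-galactosidase and the protective protein cathepsin A, encoded by Ctsa. Its FPKM was 34.5, 34.95 and 34.0 in the Ctrl libraries against 35.97, 35.02 and 34.8 in the ZA libraries. The means were 34.5 ± 0.475 and 35.3 ± 0.6005 (SD, n = 3), and ZA 3 was below Ctrl 2. Its log2 fold change was 0.032 ± 0.026 (SE, limma, adjusted p = 0.658), with a 95% interval from -1.91% to 6.53%.

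Man2b1, lysosomal alpha-mannosidase, trims mannose from N-linked glycans. It was second in level, with an FPKM of 252, 247 and 245 in the Ctrl libraries against 260.4, 249.5 and 245 in the ZA libraries. ZA 1 stood above the other libraries, while ZA 2 and ZA 3 fell within the Ctrl range. ZA minus Ctrl was, on the log2 scale, 0.022 ± 0.027 (SE, limma, adjusted p = 0.790), and its 95% interval ran from -2.77% to 5.97%. The sign turned without ZA replicate 1, to -0.0028, and stayed positive without any other single library.

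Gaa, acid alpha-glucosidase, is the enzyme that degrades glycogen in the lysosome. FPKM values were 63.2, 63.6 and 62.5 in the Ctrl libraries against 65.7, 63.1 and 62.3 in the ZA libraries. ZA 1 was again the highest library and ZA 3 the lowest. The log2 fold change came to 0.013 ± 0.027 (SE, limma, adjusted p = 0.876), with a 95% interval from -3.28% to 5.31%. Here too the sign turned without ZA replicate 1, to -0.0089.

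Gusb, beta-glucuronidase, removes glucuronic acid from glycosaminoglycans such as heparan sulfate. It had an FPKM of 96.0, 94.6 and 93.0 in the Ctrl libraries against 92.8, 92.9 and 93.7 in the ZA libraries. ZA 1 and ZA 2 were below all Ctrl libraries and ZA 3 was above Ctrl 3. On the log2 scale the fold change was -0.021 ± 0.022 (SE, limma, adjusted p = 0.737), with a 95% interval from -4.87% to 2.04%. Gusb is widely used as a reference gene in quantitative PCR, and its means were 94.5 ± 1.48 in Ctrl against 93.1 ± 0.536 in ZA (SD, n = 3).

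Among the sphingolipid hydrolases, Smpd1 encodes acid sphingomyelinase, which releases ceramide from sphingomyelin. Its FPKM was 16.5, 17.8 and 18.4 in the Ctrl libraries against 19.8, 18.4 and 17.3 in the ZA libraries. It was the lowest of the 8 enzymes, with 1658 to 1967 fragments per library, and the most variable, with a coefficient of variation of 5.60% in Ctrl and 6.75% in ZA. ZA 1 was the highest library and Ctrl 1 the lowest, but ZA 3 was below Ctrl 2 and Ctrl 3. Its log2 fold change of 0.068 ± 0.055 (SE, limma, adjusted p = 0.656) was the largest of the 8 in size. The 95% interval, from -3.98% to 14.4%, was also the widest of the 8 and holds larger changes than the intervals of the other enzymes do.

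Asah1, acid ceramidase, takes the next step and splits ceramide into sphingosine and a fatty acid. Its FPKM was 147.1, 143 and 146.7 in the Ctrl libraries against 146.5, 147.4 and 148 in the ZA libraries. Only Ctrl 2 stood a little below the other 5 libraries. Its log2 fold change was 0.017 ± 0.021 (SE, limma, adjusted p = 0.791), with a 95% interval from -2.17% to 4.62%.

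**Figure D2:**
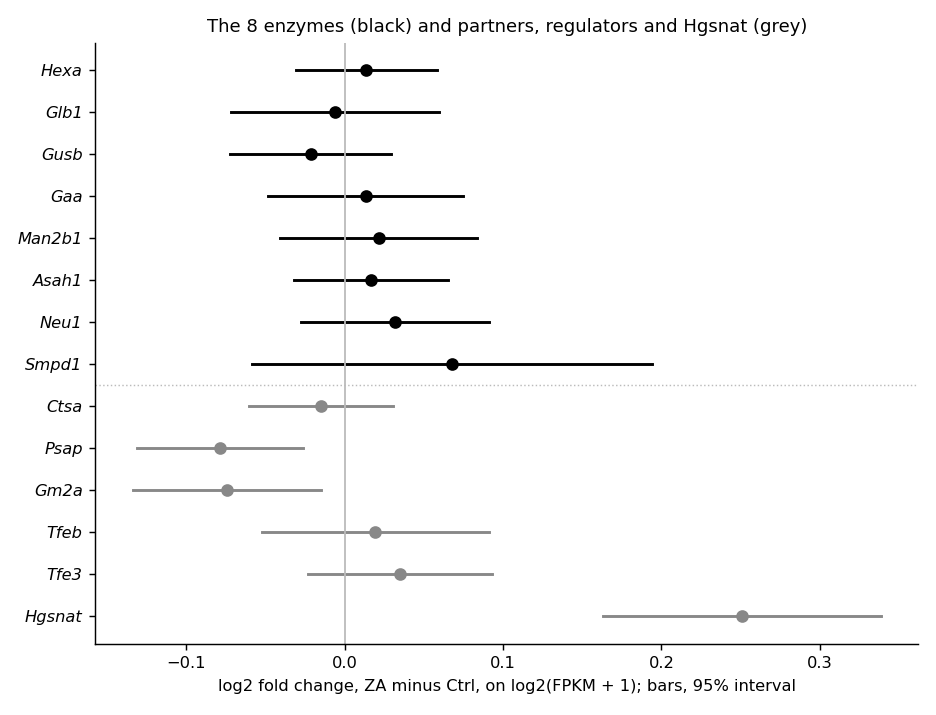
Log2 fold change (x axis, ZA minus Ctrl on log2(FPKM + 1)) with its 95% interval from limma, for the 8 enzymes (black) and for partners, regulators and Hgsnat (grey). The intervals of the 8 enzymes all include 0, with Smpd1 the widest, and Hgsnat lies at 0.25.

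The order of the 8 enzymes by FPKM was the same in 6 of 6 libraries, namely Hexa, Man2b1, Asah1, Gusb, Gaa, Glb1, Neu1 and Smpd1. Neighbours in this order did not overlap in either group. Hexa made up 57.0% to 57.9% of their summed FPKM, and it was 45.7 to 53.7 times as high as Smpd1 within a library. FPKM depends on the gene length used. The lengths restored from the table differed from the exon bases of GENCODE M21, most for Gusb at 9588 against 4548 bases and for Man2b1 at 4883 against 8026. With the same fragments scaled to GENCODE lengths, the mean Ctrl level was 199 for Gusb, 177 for Asah1 and 151 for Man2b1. It was 47.2 for Glb1 and 47.0 for Gaa. The fragments were not counted again on GENCODE exons, so that levels and places from such a count may differ. Hexa, Asah1, Neu1 and Smpd1 had the same place in both orders, while Gusb and Man2b1 changed places, as did Glb1 and Gaa. A length is the same in all libraries and leaves the comparison of ZA with Ctrl as it is.

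Fragments of the 8 genes made up 0.497% to 0.502% of each Ctrl library and 0.498% to 0.508% of each ZA library, and their summed FPKM was between 1549 and 1563 in Ctrl and between 1553 and 1586 in ZA. Counting error alone, from the mean number of fragments, would give a coefficient of variation of 0.371% for Hexa and 2.35% for Smpd1. The spread between replicates was 1.16% in Ctrl and 1.04% in ZA for Hexa, and for Neu1 1.38% and 1.70% beside a counting error of 1.34%. ZA 1 was the highest of the 6 libraries for 5 of the 8 enzymes, Glb1, Gaa, Man2b1, Neu1 and Smpd1, while the lowest value fell in Ctrl 1 for 2, in Ctrl 3 for 2, and in each of the other 4 libraries for 1.

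**Figure D3:**
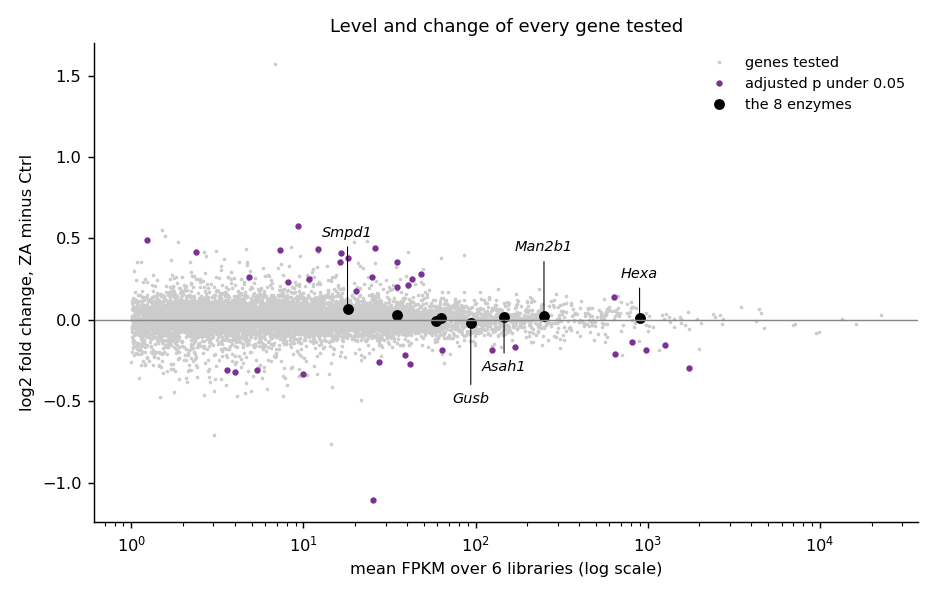
Log2 fold change (y axis, ZA minus Ctrl) against mean FPKM (x axis, log scale) for the 9798 genes tested, with the 36 genes at an adjusted p-value under 0.05 in purple and the 8 enzymes in black. The enzymes lie close to 0 across levels from Smpd1 to Hexa, at absolute values between 0.0059 and 0.068.

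The RNA levels of enzymes of successive steps or of one complex were compared as ratios of FPKM within each library, for 3 pairs. The size of such a ratio depends on the gene lengths used, which are the same in all libraries. Asah1 to Smpd1, ceramide breakdown over ceramide release, was 8.30 ± 0.532 in Ctrl against 7.997 ± 0.580 in ZA (SD, n = 3). The 2-sided exact permutation test gave p = 0.5, or 0.7 after adjustment over the 3 ratios. Hexa to Glb1 was 15.1 ± 0.394 in Ctrl against 15.3 ± 0.558 in ZA (exact permutation test, p = 0.7, adjusted 0.7). Neu1 to Glb1, 2 enzymes of one complex, was 0.582 ± 0.0111 in Ctrl against 0.598 ± 0.0143 in ZA (exact permutation test, p = 0.2, adjusted 0.6). With 3 libraries against 3 the test cannot go below 0.1, so that these p-values say little, and the ratios of the groups overlapped for all 3 pairs.

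Ctsa, the protective protein that works with beta-galactosidase and sialidase, was read from the same fit. It was at 402 ± 2.53 FPKM in Ctrl against 398 ± 5.57 in ZA (SD, n = 3), a difference of -0.015 on the log2 scale, and the groups overlapped.

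The sphingolipid activator genes Psap and Gm2a had lower values in all ZA libraries than in any Ctrl library, as did 6.76% of all genes tested. Neither passed the test over all genes. Psap encodes prosaposin, the precursor of the saposins that present lipids to the hydrolases, and ranked 5th of all genes tested. Its FPKM was 9766, 9932 and 9779 in the Ctrl libraries against 9527, 9318 and 9076 in the ZA libraries, a log2 fold change of -0.079 ± 0.023 (SE, limma, adjusted p = 0.233). With voom on the recovered fragments, an alternative added after the data had been seen, its adjusted p-value was 0.0480, the only value under 0.05 among its 14 alternatives. Without the filter it was 0.791, and without 1 library the log2 fold change lay between -0.096 and -0.060. Quantile normalization, which gives genes of equal rank in each library an equal value, left no difference (adjusted p = 1). Gm2a, the activator that lifts GM2 ganglioside to hexosaminidase, was at 110.7, 112.5 and 107.5 in the Ctrl libraries against 105.8, 105.7 and 102.5 in the ZA libraries. Its log2 fold change was -0.074 ± 0.026 (SE, limma, adjusted p = 0.304).

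Of 14 other lysosomal glycosidases, all tested, 4 were higher and 10 lower in ZA, and 0 were called at an adjusted p-value under 0.05. Below an unadjusted p of 0.05 were 1 gene higher and 1 lower (Gla), where 7.5% of all genes were higher and 4.85% lower (735 and 475 genes, which became 507 and 667 after median centring of the libraries). Gla, alpha-galactosidase A, averaged 84.2 ± 1.37 in Ctrl against 79.9 ± 1.37 in ZA (mean ± SD, n = 3), which is a log2 fold change of -0.076 (adjusted p = 0.266 from limma). Man2b2, another lysosomal mannosidase, had a log2 fold change of 0.049. The median of the list was -0.014.

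The list of lysosomal sphingolipid activators, lipases and lipid exporters had 10 of 12 genes tested, with 4 higher, 6 lower and 0 called, and a median of -0.014. Below an unadjusted p of 0.05 were 2 higher and 3 lower genes of the 10, where 7.5% of all genes were higher and 4.85% lower. Its largest statistics were those of Pld4 and Pld3, 5'-exonucleases of the lysosome that were once named as phospholipases. Pld4 was at 325 ± 3.36 FPKM in Ctrl and 349.8 ± 5.77 in ZA, and Pld3 at 599.7 ± 5.15 and 556 ± 15.5 (SD, n = 3). Their log2 fold changes were 0.11 and -0.11 (adjusted p = 0.0949 and 0.114 from limma). The groups did not overlap for either gene, as for 18.1% of all genes tested. With voom on the recovered fragments the adjusted p-values were 0.0338 and 0.0342. These were the only values under 0.05 among their 14 alternatives, which reached 0.312 for Pld4 and 0.349 for Pld3.

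In the list of sulfatases and protective protein, 9 of 10 genes were tested, with 4 higher and 5 lower and a median of -0.015. Below an unadjusted p of 0.05 were 2 higher (Hgsnat and Ids) and 1 lower (Galns), beside the same 7.5% and 4.85% of all genes. It held the single call among all lists, Hgsnat, which is not a sulfatase but the membrane enzyme that acetylates heparan sulfate inside the lysosome. Hgsnat rose from 40.5, 39.3 and 37.0 FPKM in Ctrl to 45.7, 45.7 and 48.2 in ZA. Every ZA library was above every Ctrl library, as for 11.3% of all genes tested. ZA minus Ctrl was, on the log2 scale, 0.25 ± 0.038 (SE, limma, adjusted p = 0.0487). Its adjusted p-value was above 0.05 in 11 of 14 alternatives, at 0.0508 with the replicate number as a block and between 0.0583 and 0.200 with 1 library left out, so that the call lies at the threshold while the size stayed between 0.22 and 0.28. Galns and Ids, 2 sulfatases of glycosaminoglycan breakdown, had log2 fold changes of -0.12 and 0.083 (adjusted p = 0.203 and 0.304 from limma).

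Of 12 genes of mannose 6-phosphate tagging and lysosomal sorting, 6 were higher and 6 lower, with a median of 0.00018. None was below an unadjusted p of 0.05. The groups did not overlap for 2 genes with ZA above Ctrl and 1 with ZA below, beside 11.3% and 6.76% of all genes. The largest statistics were those of Lamp2, a major protein of the lysosomal membrane, Gga3, a Golgi sorting adaptor, and M6pr, the cation-dependent mannose 6-phosphate receptor, with log2 fold changes of 0.051, 0.064 and -0.037. Their adjusted p-values were 0.471, 0.484 and 0.507 from limma.

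**Figure D4:**
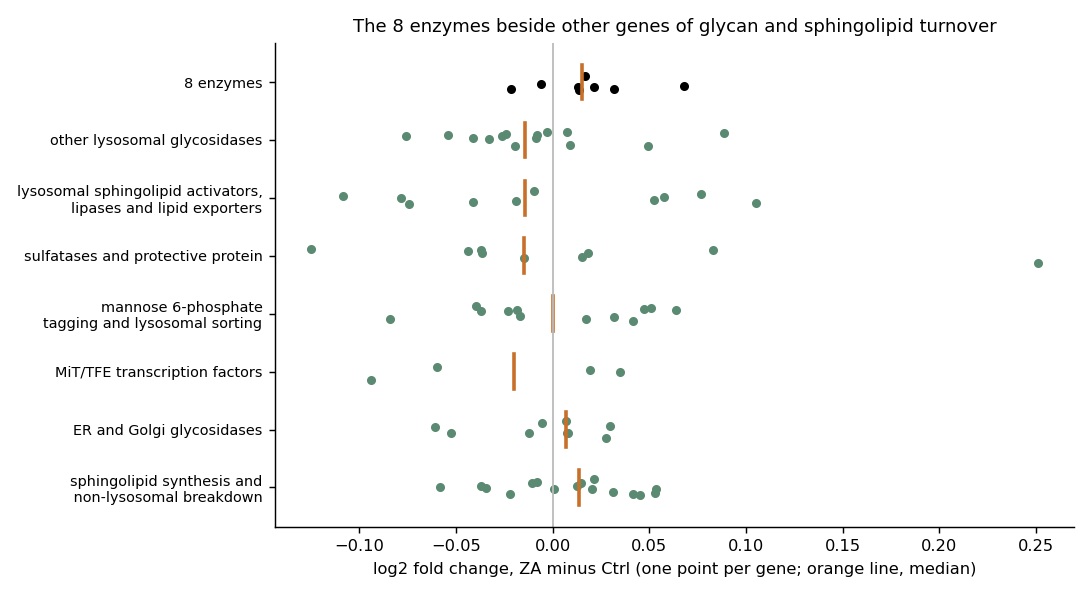
Log2 fold change (x axis, ZA minus Ctrl) of each tested gene (points) in the 8 enzymes and in the 7 lists of related genes, with the median of each list as an orange line. All medians lie between -0.020 and 0.015, and Hgsnat at 0.25 stands apart in the list of sulfatases and protective protein.

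The transcription factors of the MiT/TFE family had no called member either, with 2 of 4 higher and 2 lower. Tfeb was at 9.84, 10.2 and 9.91 FPKM in Ctrl and 10.1, 10.2 and 10.1 in ZA, a log2 fold change of 0.019 ± 0.031 (SE, limma, adjusted p = 0.840). Tfe3 averaged 38.4 ± 0.0753 in Ctrl against 39.4 ± 0.820 in ZA (mean ± SD, n = 3), which is a log2 fold change of 0.035 (adjusted p = 0.612 from limma). Mitf and Tfec had log2 fold changes of -0.060 and -0.094 (adjusted p = 0.584 and 0.571 from limma). The groups did not overlap for Tfe3, with ZA above Ctrl as in 11.3% of all genes, or for Mitf, with ZA below as in 6.76%. These are transcript levels and do not show where in the cell the proteins were.

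E-box letters that TFEB family factors can bind were looked up in the promoters of the 8 enzymes, from 250 bases before to 50 after the gene start in RefSeq (GRCm38.p6). Windows were found for 7 of the 8 genes, all but Asah1. The letters CACGTG, which read the same on both strands, were in 2 of the 7 windows, those of Glb1 and Gaa, and in 7.15% of all 32851 promoter windows. The longer form TCACGTG, searched on both strands and always overlapping the shorter one, was in the same 2 windows and in 3.77% of all. The 2 matches are shown because they are the only places where these promoters hold the letters, each read on the strand of the gene with CACGTG in capitals.
Glb1, chr9:114401020-114401045, plus strand: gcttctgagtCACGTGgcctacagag
Gaa, chr11:119267813-119267838, plus strand: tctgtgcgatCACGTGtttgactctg
Counted from the gene start, the capitals begin at -48 in Glb1 and at -140 in Gaa. Both genes had log2 fold changes near 0, -0.0059 and 0.013. A match of letters is a description of the window and not a binding site, and these windows hold no measurement from these samples.

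Enzymes that act on the same kinds of molecules outside the lysosome had 0 calls as well. Of 10 glycosidases of the endoplasmic reticulum and Golgi, 9 were tested, 5 higher and 4 lower, with 0 at an unadjusted p-value under 0.05 and a median of 0.0069. The largest statistics were those of Ganab, the catalytic subunit of glucosidase II, Man2a1 and Man1a, mannosidases of the Golgi, with log2 fold changes of -0.061, -0.052 and 0.030. Of 20 genes of sphingolipid synthesis and breakdown outside the lysosome, 16 were tested, 10 higher and 6 lower, with 0 at an unadjusted p-value under 0.05 and a median of 0.014. Degs1, which makes ceramide from dihydroceramide, Ugcg, which makes glucosylceramide, and Cers2, a ceramide synthase, had log2 fold changes of -0.035, 0.053 and -0.037.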

How the data were processed

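RNA-seq of 3 Ctrl and 3 ZA libraries was analysed. The authors deposited FPKM values, fragments scaled by gene length and library total, in 1 table with 6 columns. The submitters' processing notes name mm9; aligner, counter and annotation are not given in the sources used here, and the labels name a VAHTS and a SMARTER kit. In all but 11 of 35434 rows the symbol and values run together. Rows were cut where each number is the shortest decimal of its value (22464 rows had 1 reading), then by whole fragments for 1 gene length and the library totals (12871, the 8 enzymes included) or a known symbol (36), and 63 were left out. The 11 intact rows came out identically. The 2-sided moderated test of limma 3.58.1 (R 4.3.3) was run on log2(FPKM + 1) for the 9798 genes whose FPKM averaged 1 or more, and p-values were adjusted by Benjamini-Hochberg over all of them. Fold changes are on this scale and understate those of low genes. The 95% intervals as percentages are of FPKM + 1 and not adjusted for multiple tests. At the totals here 3 fragments, taken as the smallest amount shown, are an FPKM of at most 0.0375 for the 8 enzymes. Both steps were tested on simulated data. Python 3.11.15, NumPy 2.4.6, pandas 2.3.3 and Matplotlib 3.10.9 were used.

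The 8 enzymes and the lists were chosen with earlier results of these data known. Genes named are the 8 enzymes, 3 per list, by absolute moderated statistic, and 7 partners and regulators, of which some are not reported here. Replicates of a group were not duplicates, with a chi-square per gene of at least 3.52. Alternatives tried were another pseudocount, other filters, centring, quantile normalization, no variance trend, the replicate block, rows with 1 reading, each library left out and, added later, voom.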

Additional observations from a re-analysis of the deposited data

How the results depend on the processing

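No enzyme of the 8 was called under any of the 14 alternatives that gave them a value, with adjusted p-values from 0.556 to 0.994, and at an unadjusted p-value under 0.05 the count was 0 in each. None could be compared among rows with 1 reading, since their rows had several. Without 1 library the log2 fold change ranged from -0.023 to 0.017 for Glb1, from -0.0089 to 0.029 for Gaa, from -0.0028 to 0.040 for Man2b1 and from 0.020 to 0.11 for Smpd1, and the difference of Hexa to Glb1 on the log2 scale from -0.010 (without ZA replicate 2) to 0.038, with Glb1 turning without Ctrl replicate 1 (0.0074) or ZA replicate 2 (0.017). The difference of Asah1 to Smpd1, -0.055 over all libraries, ranged from -0.11 to -0.00048 without 1 library and was close to 0 without ZA replicate 1 (-0.00048) or Ctrl replicate 1 (-0.0023), and that of Neu1 to Glb1 ranged from 0.020 to 0.054. After subtracting group means, libraries with the same number correlated across genes at 0.284, 0.0393 and 0.280. These values do not settle whether the numbers mark pairs. The sources do not say that they mark shared cultures, and the main test did not pair them. With the replicate block 78 genes were called in place of 36, no enzyme among them (adjusted p from 0.625 to 0.940), and 0 of the sulfatase list. All genes called numbered 1 without the filter, 20 after quantile normalization, 1 without a variance trend, 0 among rows with 1 reading, where fewer genes were tested, 131 with voom and 0 to 25 without 1 library. The call of Hgsnat was kept with a pseudocount of 0.1, a filter of 5 and voom, and the sulfatase list had 0 calls with no filter, centring, quantile normalization, no trend or any library left out. With voom the list of activators and lipases had 3 calls (Psap, Pld3 and Pld4). The cause of these differences was not tested.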
